A study of Mus musculus with 15 samples.

Results

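The sterol regulatory element binding protein (SREBP) gene set described here holds 35 genes that regulate or carry out sterol and fatty acid synthesis, chosen by name as SREBP regulators and pathway enzymes. All 35 were among the 22797 genes of the count tables, and all 35 were among the 15339 genes that passed the filter on low counts and were tested. They comprise 5 regulators, the sterol carrier Stard4, 19 enzymes of the sterol branch and 10 enzymes of the fatty acid branch, and the sterol branch divides into 8 mevalonate steps and 11 squalene and sterol steps.

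The genes were read in polyA RNA of group 3 innate lymphoid cells (ILC3) and group 2 innate lymphoid cells (ILC2) sorted from the small intestine of female mice. Innate lymphoid cells are lymphocytes without rearranged antigen receptors that live in tissues, and ILC3 and ILC2 are told apart by their transcription factors and cytokines. The cells were collected at 4 Zeitgeber times, named ZT4, ZT10, ZT16 and ZT23 by the hours since lights came on. There were 8 ILC3 libraries, 2 at each time, and 7 ILC2 libraries, 2 at each of ZT4, ZT10 and ZT23 and 1 at ZT16. Suspensions from 6 mice were pooled at each time, with no treatment or genetic change labelled, and the strain, age, antibodies and sort gates are not stated. The submitters call the replicates biological, but whether they came from different pools is not stated, so the p-values measure the spread between libraries, which may be technical. The labels put all ILC3 libraries in batch 2 and all ILC2 libraries in batch 1, and these 2 factors cannot be told apart.

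SREBP proteins are made as membrane precursors in the endoplasmic reticulum, where Scap binds them and carries them to the Golgi when sterols are scarce, and Insig proteins hold them back when sterols are plentiful. Once cleaved, SREBP2 (gene Srebf2) acts mainly on genes of cholesterol synthesis and SREBP1 (gene Srebf1) mainly on genes of fatty acid synthesis. The mevalonate steps build isoprenoid units from acetyl-CoA, which feed both sterols and other products such as prenyl groups, and the squalene and sterol steps are committed to sterols.

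The labelled cell types carried their markers. All 7 ILC2 markers (such as Gata3, Il1rl1 and Il13) were lower in ILC3 libraries, with summed levels of 154 to 329 CPM (library-scaled read counts) in ILC3 and 1125 to 2334 CPM in ILC2. Of 7 ILC3 markers, 6 (such as Il22) were higher in ILC3 libraries, with sums of 1023 to 2731 CPM in ILC3 and 185 to 441 CPM in ILC2; no marker of either list was at 0 in any library. RNA of other cells was present. The 9 plasma cell markers summed to 721 to 4827 CPM in ILC3 and 20743 to 202180 CPM in ILC2, and 9 of 9 were called lower in ILC3. The 16 cell division genes summed to 826 to 1215 CPM in ILC3 and 509 to 635 CPM in ILC2, with 8 of 16 called higher in ILC3. All 6 mast cell markers were called higher in ILC3 (sums 608 to 2828 CPM in ILC3, 3.57 to 421 CPM in ILC2), and all 5 plasmacytoid dendritic cell markers lower (198 to 369 CPM in ILC3, 451 to 1470 CPM in ILC2). The 5 B cell markers had sums of 19.0 to 87.1 CPM in ILC3 and 232 to 1282 CPM in ILC2, with 3 called lower in ILC3. Of 6 T cell markers 4 were called higher in ILC3, the CD3 chain genes and Cd8a, and Cd5 lower (sums 317 to 2623 CPM in ILC3, 322 to 641 CPM in ILC2). Of 8 macrophage markers 3 were called higher (970 to 2849 CPM in ILC3, 271 to 2438 CPM in ILC2), of 14 epithelial markers 1 was called higher (195 to 5234 CPM in ILC3, 84.7 to 819 CPM in ILC2), and of 8 stromal and endothelial markers 2 were called lower (131 to 449 CPM in ILC3, 135 to 237 CPM in ILC2). Total counts ran from 5903163 to 24794403 in ILC3 and from 4016298 to 18538315 in ILC2.

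Promoters of 4 enzymes that recur below are shown first, since they stand for the patterns that the values describe: Cyp51 and Sc5d are late sterol enzymes lower in ILC3, Idi1 is a mevalonate enzyme higher in ILC3, and Msmo1 is the member with the smallest p between ZT23 and ZT10 in each cell type. Each sequence runs from 250 bases before to 50 bases after the annotated start, 5′ to 3′ on the gene's strand, from RefSeq on GRCm38.p6, the same build as mm10. Capitals mark matches, on either strand, to a CCAAT box (CCAAT), a GC box (GGGCGG), an E-box (CACGTG) or a core of the sterol regulatory element (TCACNCCA). The windows are chr5:4104648-4104947 (minus strand) for Cyp51, chr9:42264251-42264550 (minus strand) for Sc5d, chr13:8885356-8885655 (plus strand) for Idi1 and chr8:64733529-64733828 (minus strand) for Msmo1.
Cyp51: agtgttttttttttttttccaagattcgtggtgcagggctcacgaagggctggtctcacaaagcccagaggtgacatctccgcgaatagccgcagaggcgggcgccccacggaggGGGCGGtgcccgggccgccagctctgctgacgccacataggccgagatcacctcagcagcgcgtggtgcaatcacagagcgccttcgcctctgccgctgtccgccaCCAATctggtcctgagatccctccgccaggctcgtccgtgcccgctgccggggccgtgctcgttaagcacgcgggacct
Sc5d: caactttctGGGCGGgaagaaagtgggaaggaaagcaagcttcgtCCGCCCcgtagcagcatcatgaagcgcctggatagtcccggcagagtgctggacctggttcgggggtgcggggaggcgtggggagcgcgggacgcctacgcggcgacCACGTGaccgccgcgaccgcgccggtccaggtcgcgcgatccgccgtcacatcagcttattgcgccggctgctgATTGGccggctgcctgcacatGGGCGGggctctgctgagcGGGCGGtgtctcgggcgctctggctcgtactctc
Idi1: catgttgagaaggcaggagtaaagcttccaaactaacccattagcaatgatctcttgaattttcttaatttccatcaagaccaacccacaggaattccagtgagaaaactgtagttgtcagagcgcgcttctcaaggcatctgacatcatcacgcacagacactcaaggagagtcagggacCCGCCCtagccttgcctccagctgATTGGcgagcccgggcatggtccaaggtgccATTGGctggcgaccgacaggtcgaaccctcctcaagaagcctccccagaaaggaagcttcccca
Msmo1: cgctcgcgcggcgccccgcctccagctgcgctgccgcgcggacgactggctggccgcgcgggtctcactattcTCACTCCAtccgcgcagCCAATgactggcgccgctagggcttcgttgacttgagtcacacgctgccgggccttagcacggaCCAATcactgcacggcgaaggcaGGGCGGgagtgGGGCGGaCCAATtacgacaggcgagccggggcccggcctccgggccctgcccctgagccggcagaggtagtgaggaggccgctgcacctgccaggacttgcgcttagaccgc

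RefSeq promoters were used for 28 of the 35 genes. Fdps, Fdft1, Sqle, Scd1, Scd2 and Fads1 were not matched. Promoters of the set on chromosome 18, where Stard4 lies, were left out, while the shares over all genes kept that chromosome. A CCAAT box lay in the promoter of 23 of these 28 genes (82.1%), against 41.1% of 27025 genes in the table, and it was present in 9 of 9 squalene and sterol genes, 6 of 7 mevalonate genes and 4 of 7 fatty acid genes. A GC box was likewise present in 23 of 28 (82.1%), against 38.2% of genes. The E-box was found for 5 genes, Insig1, Scap, Hsd17b7, Sc5d and Dhcr7 (17.9%, against 8.09% of genes), and the sterol regulatory element core for 3, Srebf2, Hmgcs1 and Msmo1 (10.7%, against 4.97% of genes). Over all 32851 promoters of the table the shares were 37.4%, 35.7%, 7.15% and 4.36% for the CCAAT box, the GC box, the E-box and the core. No match overlapped another in the 4 sequences shown. Of those 4, Msmo1 alone held the core, and Sc5d alone held the E-box.

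The first comparison asked how the 2 cell types differ in this pathway, with ILC3 over ILC2 averaged across the times on the log2 scale. The squalene and sterol steps were lower in ILC3: 5 of 11 passed the test, all lower, and all 11 fitted values lay below 0 (beside 42.7% of all genes), with a median log2 fold change of -0.48. The mevalonate steps that feed them were divided, with Idi1 and Pmvk higher in ILC3 and a median of 0.04 over the 8 genes. Scap and Insig1, which carry and retain the SREBP precursors, were lower in ILC3. In the fatty acid branch Acaca was higher and Acss2 lower, with a median of 0.02. Altogether 11 of 35 genes were called, 3 higher and 8 lower, at an adjusted p under 0.05, beside 27.1% of all tested genes called (15.1% higher and 12% lower), so the count over the whole set is near that of all genes; the 5 of 11 squalene and sterol steps called lower stand beside the 12%. The median over all tested genes was 0.11.

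**Figure D1:**
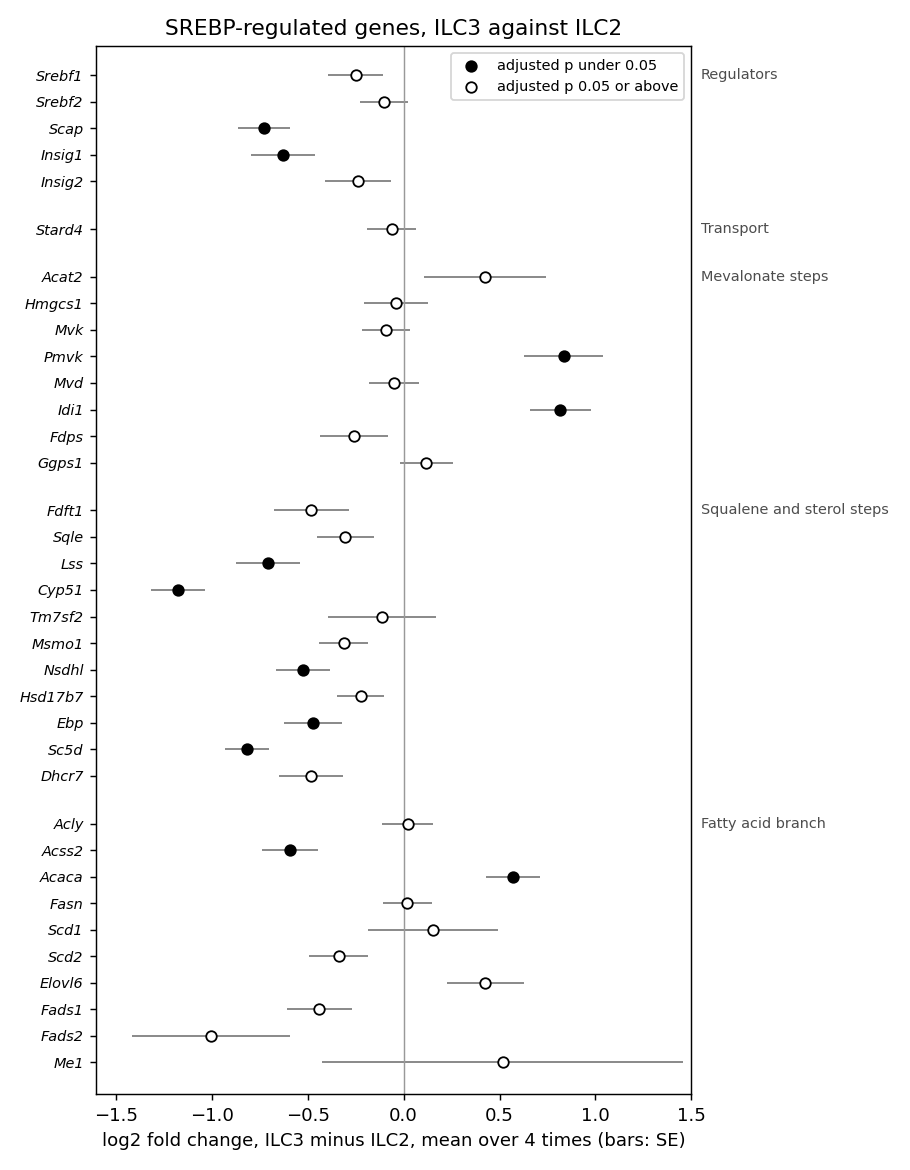
Log2 fold change (ILC3 minus ILC2, mean over the 4 times, x axis) of the 35 genes (y axis), ordered by role from regulators to fatty acid branch; bars are standard errors, and filled points have an adjusted p under 0.05. All 11 squalene and sterol genes lie left of 0, from -1.18 for Cyp51 to -0.11 for Tm7sf2, while the mevalonate and fatty acid genes lie on both sides.

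Among the regulators, the levels of the SREBP genes themselves did not pass the test over the 4 times, by edgeR or by DESeq2. Srebf2 ranged from 396 to 619 CPM (median 569) in ILC3 and from 519 to 830 CPM (median 592) in ILC2, a difference of -0.10 ± 0.13 in log2 (SE; adjusted p = 0.604). Srebf1 ranged from 78.5 to 138 CPM (median 127) in ILC3 and from 103 to 164 CPM (median 140.2) in ILC2 (-0.25 ± 0.14, adjusted p = 0.226). The ranges of both genes overlapped widely. Scap was at 74.9 to 107 CPM (median 92.6) in ILC3 and at 107 to 197 CPM (median 145) in ILC2, so the highest ILC3 library met the lowest ILC2 library. Its log2 fold change was -0.73 ± 0.14 (adjusted p = 0.00178). Insig1 lay between 133 and 209 CPM (median 144) in ILC3 and between 155 and 429 CPM (median 228) in ILC2, and fell by 0.63 ± 0.17 on the log2 scale (adjusted p = 0.0152). Insig2, the second retention protein, was at 9.49 to 22.7 CPM (median 18.9) in ILC3 and 16.2 to 26.7 CPM (median 18.8) in ILC2 (-0.24 ± 0.17, adjusted p = 0.346). Stard4, which carries cholesterol through the cytosol, averaged 79.7 ± 16.5 CPM in ILC3 and 82.8 ± 10.9 CPM in ILC2 (SD, n = 8 and 7; log2 fold change -0.06 ± 0.13).

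Of the 8 mevalonate steps, 2 were called, both higher. Idi1 (chr13:8885606-8892396), which isomerises the isoprenoid unit that farnesyl diphosphate is built from, was at 28.9 to 65.3 CPM (median 35.4) in ILC3 and at 13.7 to 39.3 CPM (median 23.0) in ILC2. Its log2 fold change was 0.82 ± 0.16 (adjusted p = 0.00223). Pmvk, the phosphomevalonate kinase, was at 29.7 to 78.7 CPM (median 37.5) in ILC3 and at 20.6 to 32.8 CPM (median 22.3) in ILC2 (0.83 ± 0.21, adjusted p = 0.00981). For both genes the cell types overlapped in part, with most ILC3 libraries above most ILC2 libraries. The other 6 did not pass: Hmgcs1, the HMG-CoA synthase, averaged 127 CPM in ILC3 and 132 CPM in ILC2. The fitted values of Acat2, Hmgcs1, Mvk, Mvd, Fdps and Ggps1 ran from -0.26 for Fdps, the farnesyl diphosphate synthase, to 0.42 for Acat2, the cytosolic acetoacetyl-CoA thiolase.

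The squalene and sterol steps held the strongest differences of the set. Cyp51 (chr5:4080674-4104697), the lanosterol demethylase, was at 145 to 316 CPM (median 205) in ILC3 and at 407 to 632 CPM (median 433) in ILC2. Every ILC3 library lay below every ILC2 library, and the log2 fold change was -1.18 ± 0.14 (adjusted p = 6.57e-05). Sc5d (chr9:42251592-42264300), a sterol desaturase near the end of the pathway, was at 32.2 to 54.9 CPM (median 45.3) in ILC3 and at 64.9 to 90.4 CPM (median 78.4) in ILC2, again without overlap. It fell by 0.81 ± 0.12 on the log2 scale (adjusted p = 2.5e-04). Cyp51 and Sc5d were the only 2 of the 35 genes whose libraries were fully separated by cell type, both lower in ILC3, beside 5.57% of all tested genes separated in that direction and 6.51% in the other. Lss, which closes squalene epoxide into lanosterol, was at 13.8 to 24.8 CPM (median 21.2) in ILC3 and 22.6 to 46.6 CPM (median 32.0) in ILC2 (-0.71 ± 0.17, adjusted p = 0.00823). Nsdhl, a sterol dehydrogenase, was at 29.6 to 51.1 CPM (median 36.8) in ILC3 and 33.3 to 99.8 CPM (median 56.2) in ILC2 (-0.52 ± 0.14, adjusted p = 0.0154). The ranges of Lss met only through its lowest ILC2 library, from ZT10, and those of Nsdhl overlapped more widely.

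Ebp, the sterol isomerase, was the last of the 5 called, at 41.9 to 78.4 CPM (median 60.6) in ILC3 and 61.1 to 108 CPM (median 90.8) in ILC2 (-0.47 ± 0.15, adjusted p = 0.0379). Its call rested on the full set of libraries: it held in 5 of the 15 fits that left out 1 library, with adjusted p from 0.00752 to 0.087, and the other 10 called genes held in 15 of 15. The remaining 6 genes did not pass by edgeR at fitted values from -0.48 to -0.11. They were Fdft1, the squalene synthase (adjusted p = 0.0904), Sqle, the squalene epoxidase (0.157), Tm7sf2 (0.828), Msmo1 (0.0940), Hsd17b7 (0.197) and Dhcr7, the dehydrocholesterol reductase (adjusted p = 0.0517). DESeq2 also called Dhcr7 lower (adjusted p = 0.033). It called 13 of the 35 genes between cell types, beside 4808 of all 15339 tested genes. The count of 5 became 8 without ILC2 ZT23 replicate 2, when Fdft1, Msmo1 and Dhcr7 also passed.

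**Figure D2:**
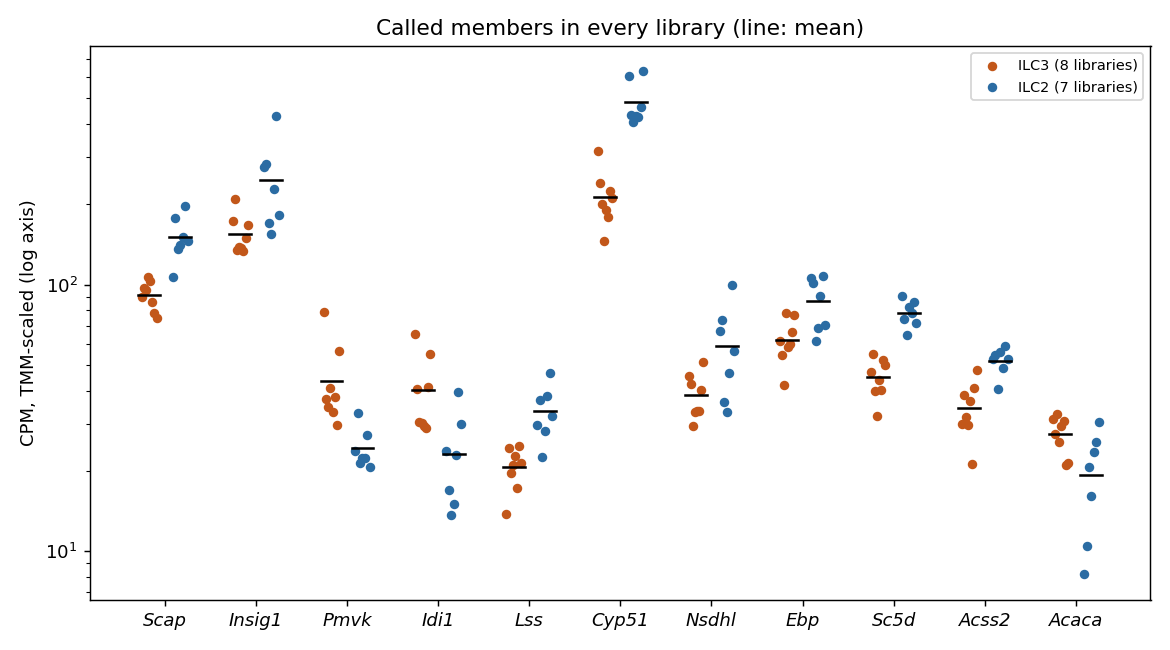
CPM (y axis, log scale) of the 11 genes called between cell types, in each of 8 ILC3 libraries and 7 ILC2 libraries; each point is a library and each line a mean. The ILC3 and ILC2 points of Cyp51 and Sc5d are fully separated, Scap meets at 107 CPM, and the other genes overlap.

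The fatty acid branch showed no common direction between cell types, with 6 fitted values above 0 (57.3% of all genes) and 4 below. Acss2, which makes acetyl-CoA from acetate, was at 21.2 to 47.8 CPM (median 34.2) in ILC3 and at 40.5 to 58.7 CPM (median 52.7) in ILC2, and fell by 0.59 ± 0.15 on the log2 scale (adjusted p = 0.0108). Acaca, the acetyl-CoA carboxylase that makes malonyl-CoA, was at 21.1 to 32.7 CPM (median 28.5) in ILC3 and at 8.16 to 30.6 CPM (median 20.6) in ILC2 (0.57 ± 0.14, adjusted p = 0.0109). The low ILC2 values of Acaca were the ZT4 libraries. At ZT23 the direction was the other way, with both ILC3 libraries (21.1 and 21.3 CPM) below both ILC2 libraries (25.6 and 30.6 CPM). Acly, which makes acetyl-CoA from citrate, averaged 309 CPM in ILC3 and 303 CPM in ILC2, and Fasn, the fatty acid synthase, 209.95 CPM in ILC3 and 205 CPM in ILC2, with log2 fold changes of 0.02 ± 0.13 for each. The desaturases and the elongase did not pass by edgeR: Scd1 had a value of 0.15 ± 0.34, Scd2 -0.34 ± 0.15, Elovl6 0.43 ± 0.20, Fads1 -0.44 ± 0.17 and Fads2 -1.002 ± 0.41. DESeq2 called Fads2 lower in ILC3 (adjusted p = 0.0455). Me1, the malic enzyme that supplies NADPH, averaged 1.89 ± 3.11 CPM in ILC3 and 1.10 ± 1.46 CPM in ILC2 (SD, n = 8 and 7) and had a log2 fold change of 0.52 ± 0.94, the least precise of the set.

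The balance between arms was also taken inside each library, as the mean log2(CPM + 0.5) of the squalene and sterol steps minus that of the mevalonate steps. In this quantity a scaling factor equal for all genes of a library nearly cancels. Factors that act on some genes more than others, such as RNA of other cells or batch, do not cancel. The balance was 0.07 to 0.36 in ILC3 libraries (mean 0.23 ± 0.10, SD, n = 8) and 0.80 to 1.10 in ILC2 libraries (mean 0.94 ± 0.11, n = 7). No ILC3 library reached an ILC2 library. The difference of the means was -0.71, and ran from -0.73 to -0.68 when single libraries were left out. The sterol branch minus the fatty acid branch overlapped between the cell types, at -0.16 to 0.56 in ILC3 (mean 0.22 ± 0.23) and -0.14 to 0.94 in ILC2 (mean 0.34 ± 0.37). No test is attached to these sums over a chosen list.

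**Figure D3:**
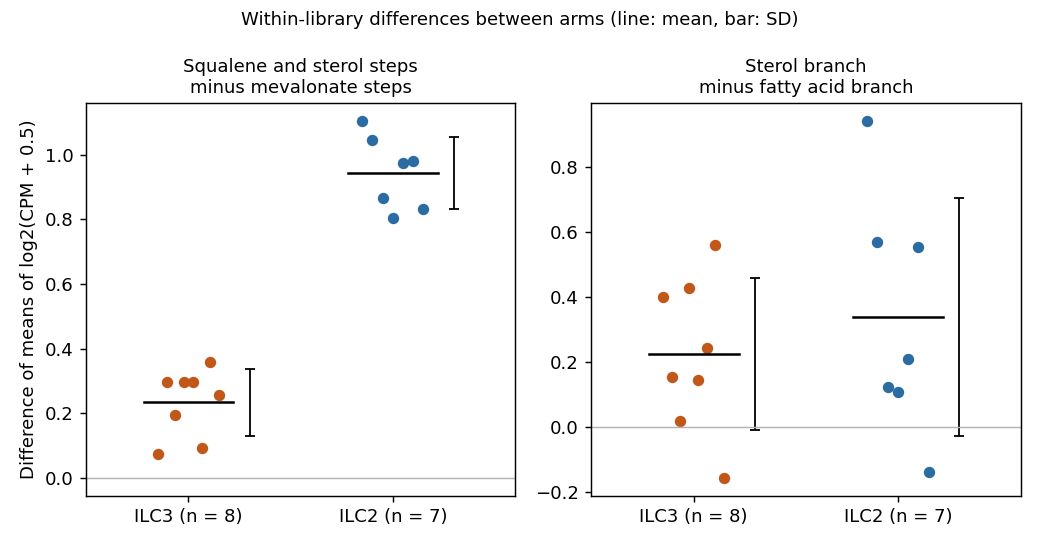
Difference between the mean log2(CPM + 0.5) of 2 arms inside each library (y axis), for ILC3 (8 libraries) and ILC2 (7 libraries); points are libraries, lines are means and bars are SD. On the left the squalene and sterol steps exceed the mevalonate steps by 0.07 to 0.36 in ILC3 and by 0.80 to 1.10 in ILC2; on the right the sterol and fatty acid branches overlap between cell types.

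Levels of different genes were compared per kilobase of gene length. Srebf2 was the highest of the set in both cell types, at 122 CPM per kb in ILC3 and 134 CPM per kb in ILC2, and Srebf1 stood at 27.8 CPM per kb in ILC3 and 32.7 CPM per kb in ILC2. Cyp51 ranked 5 of 35 in ILC3, at 49.0 CPM per kb, and 2 of 35 in ILC2, at 111 CPM per kb. Pmvk ranked 10 of 35 in ILC3 (29.0 CPM per kb) and 23 of 35 in ILC2 (16.2 CPM per kb). Acaca (3.04 CPM per kb in ILC3 and 2.14 in ILC2), Scd1 (2.36 in ILC3 and 2.13 in ILC2) and Me1 (0.527 in ILC3 and 0.307 in ILC2) were the lowest. Scd2 was above Scd1 in both, at 32.0 CPM per kb in ILC3 and 40.3 CPM per kb in ILC2; the pair is similar in sequence, and how reads shared by them were counted is not stated.

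These differences ran alongside the plasma cell markers, whose levels did not overlap between the cell types. With log2 Jchain CPM (a plasma cell gene) as a covariate 0 of the 11 genes stayed called, 48 genes of all tested were called, and Insig1, Lss, Nsdhl and Ebp took values above 0. Jchain values do not overlap between the cell types, so that fit cannot tell plasma cell RNA from cell type. In an unplanned fit with the covariate centred within each cell type, all 11 stayed called. Centring takes out the Jchain difference between the cell types, so that fit does not adjust for it. Among the ILC2 libraries, plasma cell markers were lowest at ZT23 replicate 2 (20743 CPM) and highest at ZT23 replicate 1 (202180 CPM). Replicate 2 had 632 CPM of Cyp51, 71.7 of Sc5d, 182 of Insig1, 56.2 of Nsdhl and 145 of Scap. Replicate 1 had 462 CPM of Cyp51, 86.2 of Sc5d, 429 of Insig1, 99.8 of Nsdhl and 197 of Scap. Replicate 2 held the highest Cyp51 of all 15 libraries. It lay above every ILC3 library for Cyp51, Sc5d, Scap, Lss, Nsdhl and Acss2, that is 6 of the 8 genes called lower. Its Insig1 (182 CPM) and Ebp (70.6 CPM) lay inside the ILC3 ranges. Replicate 1 was above replicate 2 for every gene called lower except Cyp51. The plasma cell sum of replicate 2 was itself above every ILC3 library (721 to 4827 CPM), so these values do not separate plasma cell RNA from cell type. The part of plasma cell RNA, of the other cell types' RNA and of the cell division genes in these differences was not tested. In bulk RNA, fewer cells of a type and less RNA per cell cannot be told apart.

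At single times, few genes passed with 2 libraries a group. At ZT4, Idi1 (1.38 ± 0.30, adjusted p = 0.0156) and Acaca (1.65 ± 0.28, adjusted p = 0.00411) were higher in ILC3, beside 7.21% of all genes called. At ZT10, Cyp51 (-1.27 ± 0.27, adjusted p = 0.0140) and Sc5d (-1.04 ± 0.22, adjusted p = 0.0149) were lower, beside 6.31%. At ZT23, Cyp51 (-1.33 ± 0.27, adjusted p = 0.0128) and Scap (-1.16 ± 0.26, adjusted p = 0.0194) were lower, beside 6.84%. At ZT16, where ILC2 holds 1 library, edgeR called 0 of 35 beside 3.29% of all genes, with 5 at an unadjusted p under 0.05 (14.3% of all genes) and 2 called by DESeq2, Cyp51 and Sc5d. DESeq2 called 5 at ZT23: Cyp51, Scap, Insig1 (adjusted p = 0.0482), Scd2 (adjusted p = 0.0479) and Srebf2 (adjusted p = 0.0328), whose edgeR value was -0.63 ± 0.24 (adjusted p = 0.148). It added Cyp51 and Sc5d at ZT4 and Idi1 at ZT10. Among all 15339 tested genes DESeq2 called 2025 at ZT4, 1610 at ZT10, 1209 at ZT16 and 1988 at ZT23. Its 4, 3, 2 and 5 of 35 members at those times are near the shares of all genes. The edgeR counts of 2 moved between 0 and 4 when single libraries were left out.

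The second question was whether the set follows the time of day. In both cell types the sterol branch was low at ZT10 and high at ZT23. Most fatty acid branch genes were also highest at ZT23, but their lowest time varied. The lowest of the 4 group means fell at ZT10 for 13 of 19 sterol branch genes in ILC3 and 16 of 19 in ILC2, beside 19.6% of all genes in ILC3 and 24.8% in ILC2. For 11 of 19 it fell there in both cell types, beside 6.67% of all genes. In the fatty acid branch it was 4 of 10 in each cell type and 2 of 10 in both. The highest group mean fell at ZT23 for 13 of 19 sterol branch genes in ILC3 and 12 of 19 in ILC2. For the fatty acid branch this count was 6 of 10 in ILC3 and 10 of 10 in ILC2. Among all 15339 genes it was 5265 in ILC3 and 3380 in ILC2. None of these time differences passed adjustment over all genes, and the values below are therefore descriptions.

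**Figure D4:**
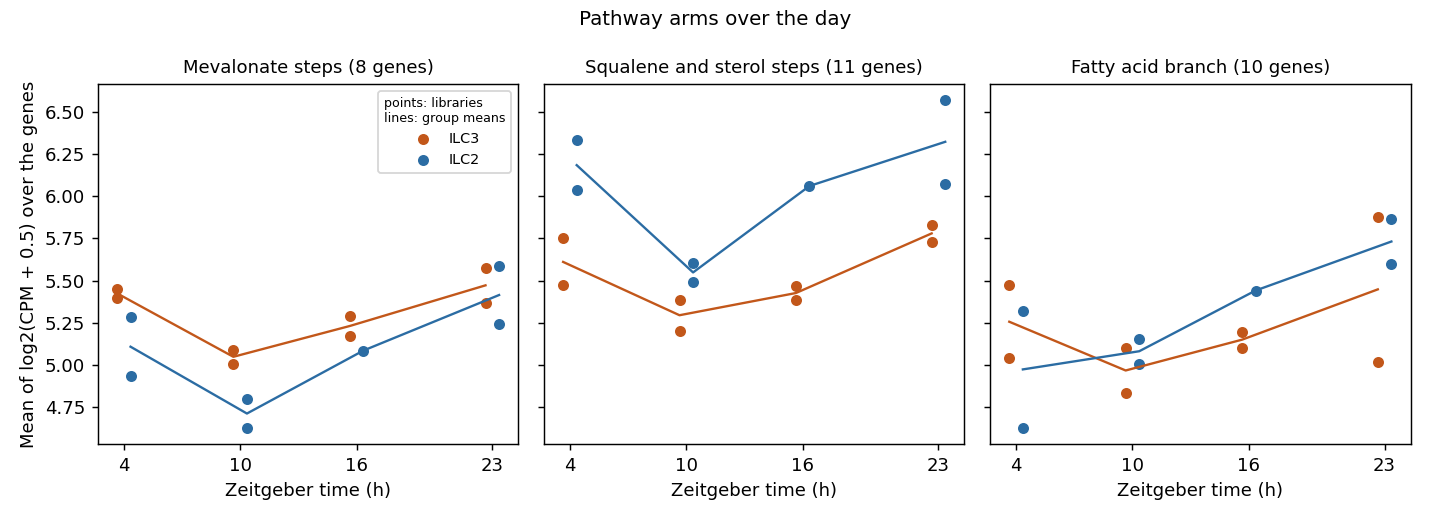
Mean log2(CPM + 0.5) over the genes of 3 arms (y axis) by Zeitgeber time in hours (x axis) for ILC3 and ILC2; points are libraries and lines join group means, with 1 ILC2 library at ZT16. The mevalonate and the squalene and sterol steps are lowest at ZT10 in both cell types, and the squalene and sterol steps are lower in ILC3 at every time.

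The mean over the 19 sterol branch genes, in log2(CPM + 0.5), was 5.44 and 5.63 (ZT4), 5.12 and 5.26 (ZT10), 5.35 and 5.35 (ZT16), then 5.58 and 5.72 (ZT23) in ILC3. In ILC2 it was 5.57 and 5.89 (ZT4), 5.13 and 5.26 (ZT10), 5.65 (the single ZT16 library), then 6.16 and 5.72 (ZT23). In each cell type both ZT10 libraries lay below every library of the other times. The fatty acid branch mean was 5.04 and 5.47 (ZT4), 5.10 and 4.83 (ZT10), 5.20 and 5.10 (ZT16), then 5.02 and 5.88 (ZT23) in ILC3. In ILC2 it was 4.63 and 5.32 (ZT4), 5.01 and 5.16 (ZT10), 5.44 (ZT16), then 5.60 and 5.86 (ZT23). Its ILC3 libraries at ZT23 lay far apart, with 1 near the ZT10 values.

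Over the 4 times edgeR's quasi-likelihood F-test called 0 of 35 genes in ILC3 and 0 of 35 in ILC2, and 0 of all 15339 in each. At an unadjusted p under 0.05 there were 2 of 35 in ILC3 (Msmo1 and Idi1), beside 4.36% of all genes, and 10 of 35 in ILC2, beside 3.36%; 8 of the 10 were sterol branch genes. DESeq2 called 0 of the 32 genes to which it gave an adjusted p in ILC3 (none was given for Me1, Scd1 and Tm7sf2) and 1 of 35 in ILC2, Acaca (adjusted p = 0.00723), with 28 and 24 genes of all tested called in ILC3 and in ILC2. The interaction of cell type and time was called for 0 genes of all tested by edgeR, with 1 of 35 (Acaca, adjusted p = 1) at an unadjusted p under 0.05, beside 2.00% of all genes, and for 2 genes by DESeq2, neither of them in the set.

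Msmo1, a methylsterol monooxygenase, had the smallest unadjusted p over time in ILC3 (adjusted p = 0.965) and was among the 3 smallest in ILC2 (adjusted p = 1). Its ILC3 libraries held 97.7 and 113 (ZT4), 58.1 and 68.3 (ZT10), 88.0 and 73.1 (ZT16), then 108 and 129.9 (ZT23) CPM. Its ILC2 libraries held 117 and 146 (ZT4), 75.8 and 61.2 (ZT10), 116 (ZT16), then 169 and 120.3 (ZT23) CPM. In each cell type both ZT10 libraries lay below every library of the other times. Idi1 came next in ILC3 (adjusted p = 0.965), at 65.3 and 40.4 (ZT4), 30.4 and 30.2 (ZT10), 29.4 and 28.9 (ZT16), then 41.3 and 54.8 (ZT23) CPM. In ILC2 it was at 23.6 and 16.97 (ZT4), 13.7 and 14.99 (ZT10), 23.0 (ZT16), then 39.3 and 30.001 (ZT23) CPM. Its low stretch covered ZT10 and ZT16 in ILC3 and ZT10 in ILC2. Nsdhl was among the 3 smallest in ILC2 (adjusted p = 1), at 67.2 and 73.7 (ZT4), 36.3 and 33.3 (ZT10), 46.7 (ZT16), then 99.8 and 56.2 (ZT23) CPM. In ILC3 it was at 45.2 and 42.2 (ZT4), 29.6 and 33.2 (ZT10), 33.6 and 33.4 (ZT16), then 40.1 and 51.1 (ZT23) CPM.

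Acaca had the smallest unadjusted p over time in ILC2 (adjusted p = 1), with another order of times than the sterol genes. It was at 8.16 and 10.4 (ZT4), 20.6 and 16.0 (ZT10), 23.6 (ZT16), then 25.6 and 30.6 (ZT23) CPM in ILC2. In ILC3 it was at 31.3 and 27.5 (ZT4), 32.7 and 25.7 (ZT10), 29.5 and 30.7 (ZT16), then 21.1 and 21.3 (ZT23) CPM. Its lowest libraries were thus those of ZT4 in ILC2 and of ZT23 in ILC3. The difference between the cell types in ZT16 minus ZT4 was -1.3003 ± 0.42 (adjusted p = 1). Fads2, the desaturase of polyunsaturated fatty acids and among the 3 smallest in ILC3 (adjusted p = 0.965), was at 9.12 and 39.1 (ZT4), 12.5 and 12.6 (ZT10), 24.3 and 15.4 (ZT16), then 19.0 and 101 (ZT23) CPM in ILC3. In ILC2 it was at 23.6 and 75.9 (ZT4), 34.5 and 34.6 (ZT10), 51.3 (ZT16), then 95.0 and 38.8 (ZT23) CPM. In both cell types its 2 libraries at ZT4 and at ZT23 lay far apart.

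Over the 5 regulators the median of ZT23 minus ZT10 was -0.18 in ILC3 and 0.38 in ILC2. Srebf2 was at 617 and 604 (ZT4), 582 and 619 (ZT10), 555 and 543 (ZT16), then 554 and 396 (ZT23) CPM in ILC3. In ILC2 it was at 560.4 and 619 (ZT4), 592 and 535 (ZT10), 519 (ZT16), then 638 and 830.1 (ZT23) CPM. Its extremes were both ZT23 libraries, the lowest in ILC3 and the highest in ILC2. Insig1 was at 174 and 209 (ZT4), 135 and 138 (ZT10), 137 and 133 (ZT16), then 149.6 and 167 (ZT23) CPM in ILC3. In ILC2 it was at 276 and 283 (ZT4), 170.5 and 155 (ZT10), 228 (ZT16), then 429 and 182 (ZT23) CPM. Insig1 was low at ZT10 in ILC2, and at ZT10 and ZT16 in ILC3. Scap was at 89.5 and 97.0 (ZT4), 95.6 and 107 (ZT10), 103 and 85.8 (ZT16), then 78.0 and 74.9 (ZT23) CPM in ILC3. The ILC2 libraries had 107 and 177 (ZT4), 136 and 141 (ZT10), 151 (ZT16), then 197 and 145 (ZT23) CPM of Scap. The lowest Scap libraries of ILC3 were those of ZT23, whereas the lowest of ILC2 was from ZT4.

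Between ZT23 and ZT10, 19 of 19 sterol branch genes had a fitted value above 0 in ILC3, beside 49.4% of all genes, and 18 of 19 in ILC2, beside 50.5%; Ggps1, which makes the geranylgeranyl unit of protein prenylation and not sterols, was the exception at -0.20. The median log2 fold change of the branch was 0.49 in ILC3 and 0.80 in ILC2, with medians over all genes of 0.00 in ILC3 and 0.01 in ILC2. Both ZT23 libraries lay above both ZT10 libraries for 14 of 19 genes in ILC3 (18.4% of all genes), for 16 of 19 in ILC2 (13.9%), and for 13 of 19 in both cell types (4.23%). No gene of any kind passed adjustment by edgeR in either contrast; at an unadjusted p under 0.05 there were 4 of 35 in ILC3, beside 8.17% of all genes, and 15 of 35 in ILC2, beside 2.90%. DESeq2 called 0 of 34 in ILC3, where Me1 had no adjusted p, and 0 of 35 in ILC2, with 24 genes of all tested called in ILC3 and 5 in ILC2. The fitted values were 0.91 ± 0.24 for Msmo1, 0.66 ± 0.29 for Idi1, 0.63 ± 0.33 for Fdps and 0.54 ± 0.26 for Nsdhl in ILC3. In ILC2 they were 1.08 ± 0.25 for Msmo1, 1.27 ± 0.30 for Idi1, 1.44 ± 0.34 for Fdps and 1.16 ± 0.27 for Nsdhl. Cyp51 and Sc5d, which separated the cell types, were at 0.34 ± 0.27 and 0.50 ± 0.22 in ILC3 and at 0.39 ± 0.27 and 0.09 ± 0.22 in ILC2.

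**Figure D5:**
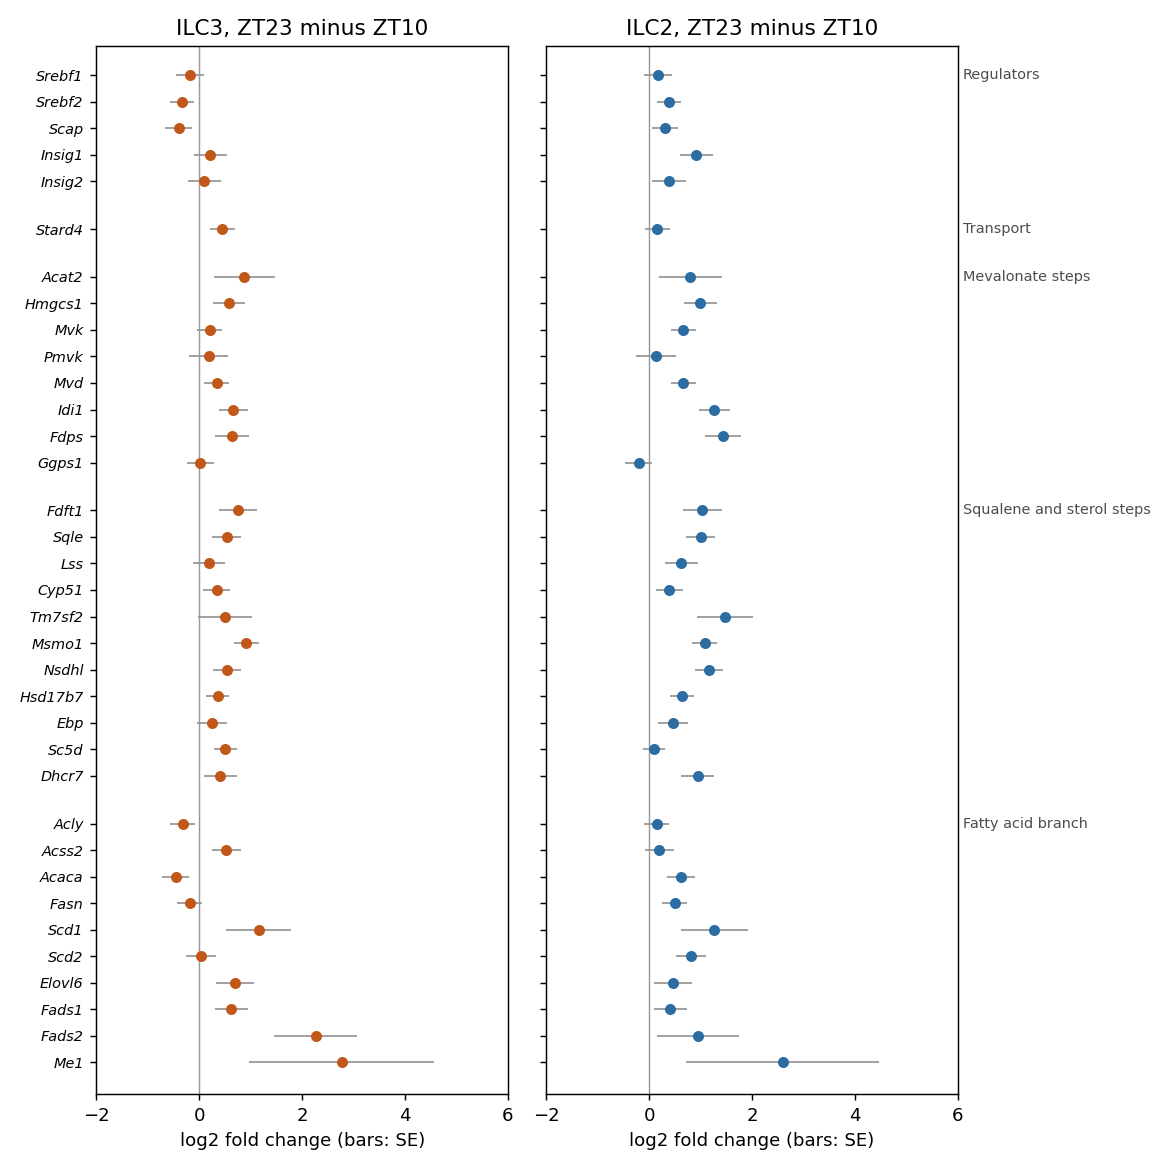
Log2 fold change of ZT23 minus ZT10 (x axis) of the 35 genes (y axis) in ILC3 (left) and ILC2 (right), with standard errors. All sterol branch genes lie right of 0 except Ggps1 in ILC2, and Acly, Acaca and Fasn lie left of 0 in ILC3 and right of 0 in ILC2; no gene passed adjustment.

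Fdps, which makes the last precursor shared by sterols and prenyl groups, was in ILC2 at 169 and 81.1 CPM at ZT23, against 45.97 and 46.2 CPM at ZT10, and in ILC3 at 77.8 and 80.3 CPM at ZT23, against 44.6 and 57.6 CPM at ZT10. Sqle, the squalene epoxidase, was at 135 and 83.8 CPM in ILC2 at ZT23, against 60.4 and 49.3 CPM at ZT10, and at 72.3 and 81.3 CPM in ILC3 at ZT23, against 57.2 and 48.8 CPM at ZT10. Hmgcs1 was at 206 and 145 CPM in ILC2 at ZT23, against 96.7 and 79.3 CPM at ZT10, and at 146 and 136 CPM in ILC3 at ZT23, against 103 and 85.3 CPM at ZT10. For all 3 genes the ZT23 libraries lay above the ZT10 libraries in both cell types.

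The fatty acid branch divided in that contrast. In ILC3, 7 of 10 genes lay above 0, and Acly (-0.32 ± 0.25), Acaca (-0.46 ± 0.26) and Fasn (-0.19 ± 0.24), the enzymes that lead from citrate to palmitate, lay below it with both ZT23 libraries under both ZT10 libraries (22.3% of all genes). In ILC2, 10 of 10 lay above 0, with 0.14 ± 0.25 for Acly, 0.63 ± 0.27 for Acaca and 0.49 ± 0.24 for Fasn. The median over the branch was 0.57 in ILC3 and 0.56 in ILC2. The ILC3 median rested on 1 library: it was 0.01 without ZT23 replicate 2, and 5 of 10 genes were then above 0. In ILC2 the count of 10 became 7 without ZT23 replicate 2. Only Fads2 of the 10 was above in both libraries of ZT23 in both cell types. A test of the difference between cell types, added after the data were seen, called 0 genes of all tested by edgeR, with Acaca the 1 of 35 at an unadjusted p under 0.05 (-1.09 ± 0.38, adjusted p = 0.9999, beside 2.59% of all genes), and 0 of 35 by DESeq2.

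Other cell types also moved between these times. In ILC3 the 14 epithelial markers summed to 1001 and 5234 CPM at ZT23, against 599.6 and 450.0 CPM at ZT10, and 14 of 14 had values above 0; Muc2 and Reg3g were each at 0 in 1 ILC3 library. In ILC2 the epithelial markers summed to 556 and 749 CPM at ZT23, against 331 and 396 CPM at ZT10, and 13 of 14 had values above 0. The epithelial median log2 fold change was 2.93 in ILC3 (sterol branch 0.49) and 0.90 in ILC2 (sterol branch 0.80), and 7 of the 14 markers were above at ZT23 without overlap in both cell types (4.23% of all genes). In each cell type 9 of 9 plasma cell markers and 5 of 5 B cell markers had values above 0, and in ILC2 6 of 6 mast cell markers did. The plasma cell sums of ILC2 were 202180 and 20743 CPM at ZT23, against 54186 and 39238 CPM at ZT10. Its B cell sums were 1282 and 232 CPM at ZT23, against 402 and 302 CPM at ZT10. For both lists ILC2 ZT23 replicate 2 thus lay below both ZT10 libraries. The part of these cells' RNA in the sterol values was not tested. Without ILC3 ZT23 replicate 2, the library with the most epithelial RNA, the sterol branch median in ILC3 was 0.38 with 17 of 19 genes above 0. The ILC3 ZT23 library that was left still held 1001 CPM of epithelial markers, above both ZT10 libraries, so this fit keeps an epithelial difference. In ILC2 the sterol branch median was 0.63 with 16 of 19 above 0 without ZT23 replicate 1, which had the most plasma cell RNA, and 1.13 with 18 of 19 without ZT23 replicate 2, which had the least.

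From ZT4 to ZT16 the branches had no common shift. The sterol branch median of ZT16 minus ZT4 was -0.13 in ILC3 and -0.18 in ILC2, and the fatty acid branch median was -0.23 in ILC3 and 0.38 in ILC2, where 8 of 10 genes lay above 0 (46% of all genes). edgeR called 0 genes of all tested in either cell type; at an unadjusted p under 0.05 there were 4 of 35 in ILC3, beside 3.33% of all genes, and 2 of 35 in ILC2, beside 4.72%. DESeq2 called 0 of 35 in each. The libraries moved in opposite directions in the 2 cell types, without overlap, for 1 of 35 genes (Scd1), beside 6.08% of all genes.

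Genes next to the pathway were read from 5 further lists that hold 79 genes, in ILC3 minus ILC2. Among all tested genes 15.1% were called higher and 12% lower, and each count below stands beside those shares. Of 10 genes of SREBP processing and turnover, 4 were called higher and 2 lower, with a median log2 fold change of 0.24. Erlin1 (1.03 ± 0.21) and Erlin2 (0.66 ± 0.15), scaffold proteins of the endoplasmic reticulum that restrain SREBP activation, were higher, and Ubxn8 was lower (-0.69 ± 0.14). Of 20 genes of sterol export, storage and trafficking, 2 were called higher and 6 lower (median 0.01). Npc1, which moves cholesterol out of lysosomes, was at 38.5 to 77.0 CPM in ILC3 and 78.0 to 168 CPM in ILC2 (-1.17 ± 0.15), without overlap (5.57% of all genes). Nceh1, a cholesterol ester hydrolase, was lower too (-1.06 ± 0.12), and Lipa, the lysosomal acid lipase, was higher (0.84 ± 0.15).

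Of 12 genes that use isoprenoids outside sterol synthesis, 0 were called higher and 2 lower (median -0.06), beside the 27.1% of all genes called. The 2 were Dhdds, which makes dolichol precursors (-0.99 ± 0.15), and Rabggtb, a subunit that prenylates Rab proteins (-0.63 ± 0.14). Of 22 genes of fatty acid activation, elongation and glycerolipid synthesis, 3 were called higher and 5 lower (median 0.02). Fads3, a gene of the desaturase family, was at 1.07 to 6.49 CPM in ILC3 and 26.02 to 74.6 CPM in ILC2 (-4.11 ± 0.37), the largest difference in these lists. Elovl5 (-0.99 ± 0.17) and Acsl3 (-1.46 ± 0.27) were lower and Acsl1 was higher (0.72 ± 0.15). Of 15 genes of fatty acid oxidation, 2 were called, both higher, Acadm (0.43 ± 0.12) and Slc25a20 (0.54 ± 0.18), beside 15.1% of all genes called higher. The median of that list was -0.02. Between ZT23 and ZT10 the list of sterol export, storage and trafficking had 8 of 20 values above 0 in each cell type, with medians of -0.16 in ILC3 and -0.22 in ILC2. Fatty acid oxidation had 13 of 15 above 0 in each, with medians of 0.47 in ILC3, close to the 0.49 of the sterol branch, and 0.10 in ILC2. The isoprenoid list had 9 of 12 above 0 in ILC3 (median 0.11) and 11 of 12 in ILC2 (median 0.21). SREBP processing and turnover had 2 of 10 in ILC3 (median -0.30) and 6 of 10 in ILC2 (median 0.09), and fatty acid activation, elongation and glycerolipid synthesis 11 of 22 in ILC3 (median -0.01) and 14 of 22 in ILC2 (median 0.19).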

How the data were processed

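PolyA RNA of sorted ILC3 and ILC2 was sequenced in 15 libraries made with a TruSeq RNA kit, per the labels' protocols. The authors deposited raw read counts per gene, whole numbers without normalization, with gene lengths. Reads were counted with featureCounts on mm10, per the submitters' processing notes. No source used here states the aligner, how strand was handled or how reads shared by several genes were treated. Identifiers were named through RefSeq GRCm38.p6 (22718 of 22797 matched).

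Groups follow the labelled cell type and time. Genes with low counts were removed by filterByExpr (minimum count 10), leaving 15339, and counts were scaled by TMM and fitted in edgeR 4.0.16 (R 4.3.3) as 8 group means over 15 libraries, with 7 residual degrees of freedom shared by all groups. Tests were quasi-likelihood F-tests with Benjamini-Hochberg adjustment over all tested genes, called at an adjusted p under 0.05. Log2 fold changes and SE come from that fit; CPM are TMM-scaled, with 0.5 CPM added on the log scale for arm means. DESeq2 1.42.0, other scalings, no filter, a Jchain covariate, a replicate block and leaving out libraries were alternatives. The code was tested on simulated data. Both libraries of a group differed by more than sampling noise, with chi-square per degree of freedom of 22.1 to 229.

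Values are given per library for genes called between cell types, for the 5 regulators (as lowest, median and highest, or by time) and for the 3 genes with the smallest p over time in each cell type; of each neighbouring list at most 4 genes are named, from those with the smallest p. Some genes of these lists are not reported here by name. The gene set and the lists were chosen with earlier results of these data known. Intervals of single counts are not given, since the spread between libraries is larger.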

Additional observations from a re-analysis of the deposited data

Results flagged for a closer look

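Within each cell type, 70 sets of libraries (35 genes in ILC3 and in ILC2) were searched for a library far from the others, and 8 had one, 4 in each cell type. The rule flags about 1 in 20 sets of independent, normally spread values with a common mean. These libraries span 4 times and the genes share libraries, so the 8 cannot be judged against that rate. The share among all tested genes was not computed. All 8 were ZT23 libraries. ILC3 ZT23 replicate 2 was lowest for Srebf2 (396 CPM, next 543 CPM) and Acly (205 CPM, next 303 CPM) and highest for Fads2 (101 CPM, next 39.1 CPM) and Me1 (9.42 CPM, next 2.22 CPM). It is the library with the largest epithelial marker sum, 5234 CPM; the part of epithelial RNA in these values was not tested. ILC2 ZT23 replicate 2 was highest for Srebf2 (830.1 CPM, next 638 CPM), Elovl6 (55.1 CPM, next 29.6 CPM) and Me1 (4.199 CPM, next 1.299 CPM), and it has the smallest plasma cell sum of the ILC2 libraries. ILC2 ZT23 replicate 1 was highest for Fdps (169 CPM, next 95.4 CPM), and it has the largest plasma cell sum; the part of plasma cell RNA was not tested.

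For 5 comparisons every library of one cell type moved one way between 2 times and every library of the other moved the opposite way. They were 4 of 35 genes between ZT23 and ZT10, beside 3.36% of all tested genes, and 1 of 35 between ZT16 and ZT4, beside 6.08%. From ZT10 to ZT23 these were Srebf2, Scap, Acaca and Fasn, with log2 fold changes of -0.34, -0.40, -0.46 and -0.19 in ILC3 and 0.38, 0.30, 0.63 and 0.49 in ILC2. The differences between cell types were -0.72 for Srebf2, -0.71 for Scap, -1.09 for Acaca and -0.68 for Fasn, each with an adjusted p of 0.9999 by edgeR's quasi-likelihood test. From ZT4 to ZT16 it was Scd1, at -0.78 in ILC3 and 0.62 in ILC2, a difference of -1.41 (adjusted p = 1), where ILC2 has 1 library at ZT16.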

How the results depend on the processing

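Of the 11 genes called between cell types, 10 held in all 15 fits that left out 1 library; Ebp held in 5, and was also lost with library size as the only scaling, with the replicate block and without ILC2 ZT23 replicate 1 and ILC3 ZT23 replicate 2 together. The number of set members called ran from 10 to 15. Acss2 was lost with library size as the only scaling, which put the median of all genes at 0.26 (0.11 with TMM), the squalene and sterol median at -0.32, the sterol branch median at -0.10, and the members called at ZT23 at 1. With log2 Jchain CPM as a covariate, whose values do not overlap between cell types, 48 genes and 0 members (0 higher, 0 lower, 0 of the squalene and sterol steps) were called; the medians were 1.03 for the mevalonate steps, 0.43 for the squalene and sterol steps, 0.60 for the sterol branch and 0.30 for the fatty acid branch, and Insig1 (1.11), Lss (0.35), Nsdhl (0.60) and Ebp (0.16) reversed. Beyond these 4, no called gene reversed. With the Jchain covariate centred within each cell type, all 11 called genes stayed called. DESeq2 called more genes at single times (2025 at ZT4, 1610 at ZT10, 1209 at ZT16, 1988 at ZT23; members 4 at ZT4, 2 at ZT16 and 5 at ZT23), 28 genes over time in ILC3, 24 genes and 1 member in ILC2, 2 for the interaction, 2 in ILC3 and 4 in ILC2 for ZT16 minus ZT4, and 24 in ILC3 and 5 in ILC2 for ZT23 minus ZT10. With no filter, ZT23 minus ZT10 called 1 gene in ILC3 and 2 in ILC2. Without both named ZT23 libraries, an alternative added after the data were seen, the fatty acid median between cell types was -0.25, members called were 4 at ZT4, 1 at ZT16 and 0 at ZT23, 286 genes were called at ZT23, 1 gene each over time in ILC2, for the interaction and for ZT16 minus ZT4 in ILC2, and the ZT23 minus ZT10 medians were 0.00924 for the fatty acid branch in ILC3 and 0.62 for the squalene and sterol steps in ILC2. The cause of these shifts was not tested.

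Leaving out single libraries, or both named ZT23 libraries, gave 455 to 1503 genes and 1 to 4 members at ZT4, 345 to 1185 genes and 0 to 3 members at ZT10, 110 to 715 genes at ZT16, and 286 to 1231 genes and 0 to 3 members at ZT23. Members at ZT4 were 1 without ILC2 replicate 2 or ILC3 replicate 1 of that time and 4 without ILC3 ZT10 replicate 1; at ZT10 they were 0 without ILC2 replicate 2 or ILC3 replicate 2 and 1 without ILC2 replicate 1; at ZT23 they were 0 without ILC3 replicate 2 and 1 without ILC2 replicate 1 or ILC3 replicate 1. Squalene and sterol steps called lower were 4 to 8, and genes over time in ILC3 were 0 to 3, the 3 without ILC3 ZT23 replicate 1. The fatty acid median between cell types ran from -0.24 (without ILC3 ZT23 replicate 2) to 0.0328. For ZT23 minus ZT10 the ILC2 medians ran from 0.61 to 1.18 for the squalene and sterol steps and from 0.63 to 1.13 for the sterol branch, and the ILC3 fatty acid median from 0.01 to 0.65. Where 1 library is left in a group, it is taken to vary like the other groups.

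Replicate numbers did not pair the libraries in every group: of 21 pairs of groups, 6 had a correlation of deviations above 0.1 (range -0.145 to 0.489). Between ILC2 and ILC3 of the same time it was 0.489 at ZT4, 0.216 at ZT10 and -0.0424 at ZT23. Between groups of different times it reached 0.449 (ILC3 ZT4 with ILC3 ZT23) and 0.378 (ILC2 ZT4 with ILC3 ZT23). Libraries of the same replicate number may be related at ZT4 and ZT10, but these correlations do not show pairing. The main fit took all libraries as independent. With the replicate block, fitted without the unnumbered ILC2 ZT16 library, 10 members and 3525 genes were called between cell types, and no time contrast called a gene.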
